A study of Mus musculus with 25 samples.

Results

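The centromere and kinetochore genes are 41 of the 15768 genes listed in the deposited tables. They were chosen by name: 18 symbols of the form Cenp plus a letter from a to x, and 23 listed kinetochore and chromosomal passenger symbols, of which 0 were absent. All 41 were in the long-term table (15315 genes) and 40 in the short-term table (14007 genes), where Cenpi was not listed. All listed members passed the filter on low reads. Symbols outside the naming pattern, such as Cenpc1 and Itgb3bp, are not members and were described with the neighbouring genes.

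RNA was sequenced from pituitaries of 25 shRb mice. Every mouse carried a Rosa26-driven rtTA, which is active in most tissues, and at Col1a1 a doxycycline-inducible, GFP-linked shRNA against Rb, and all lines came from 1 embryonic stem cell clone. Doxycycline (dox) in the drinking water turned the shRNA on and its removal turned it off. The ages of the sequenced mice were not given in the labels. The long-term experiment, from poly(A)-enriched libraries, held 3 mice after 6 weeks of dox (6w+dox, female), 4 after 12 weeks (12w+dox, replicates 1 and 2 female, 3 and 4 male) and 5 after 6 weeks of dox followed by 6 weeks without (12w-res, replicates 1 and 2 male, 3, 4 and 5 female). The short-term experiment, from rRNA-depleted libraries, held 3 mice after 16 weeks of dox (16w+dox, male) and mice then kept off dox for 1 day (1d-dox, 4 female), 3 days (3d-dox, 3 male) or 5 days (5d-dox, 3 female). Every group had received dox, and mice that never received it were not analysed here.

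The centromere is the chromosomal site on which the kinetochore is built, and it is marked by nucleosomes that carry the histone H3 variant CENP-A. A constitutive inner layer binds these nucleosomes, and in mitosis an outer layer assembles on it that holds spindle microtubules, while the chromosomal passenger complex corrects wrong attachments and shugoshins protect sister chromatid cohesion. Many of these genes are transcribed mainly in G2 and mitosis. Proteins of the RB family, in E2F and DREAM-type repressor complexes, are known to hold such genes down in cells that do not divide.

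Libraries held 19066053 to 28968476 reads on genes in the long-term experiment and 9573101 to 13036900 in the short-term experiment. Values are the deposited normalized reads (FPM, scaled with DESeq2 size factors), which do not correct for gene length. Rb1, the shRNA's target, had a mean of 3.16 ± 1.70 FPM in the 6w+dox mice (SD, n = 3) and 3.21 ± 0.700 in the 12w+dox mice (n = 4), and of 18.2 ± 1.66 after withdrawal, in 12w-res (n = 5). In the short-term mice the means of Rb1 lay between 4.19 and 5.12 FPM, while those of GFP went from 1247 FPM at 16w+dox to 11.7 at 5d-dox. The experiments were normalized separately and from different library types, so FPM of one cannot be compared with FPM of the other. Pomc, one of 5 melanotroph markers listed, took 12.9% to 23.0% of reads at 12w+dox and 39.1% to 43.2% in 12w-res. The summed FPM of these 5 markers was 98586 to 201557 at 12w+dox and 462270 to 583568 in 12w-res. Most of that sum was Pomc itself (93231 to 194592 and 452682 to 573321 FPM), so it says little about the other markers. Markers of other cells were present too: 4 fibroblast markers summed to 28.5 to 117 FPM at 12w+dox and 189 to 457 in 12w-res, 4 endothelial markers to 50.5 to 109 and 160.2 to 228, and 4 macrophage markers to 45.6 to 68.1 and 79.7 to 108. The lactotroph marker Prl measured 214 to 4940 FPM at 12w+dox and 5659 to 11697 in 12w-res. The somatotroph markers Gh and Ghrhr summed to 933 to 7499.9 and 6393 to 24762. Ranges of the thyrotroph, gonadotroph, neural lobe, and stem and folliculostellate markers also overlapped between these groups. The part of these shifts in the results below was not tested, and in bulk tissue fewer dividing cells and less RNA per cell cannot be told apart.

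The promoters of members are shown first. Several members with large differences hold short sequence elements near their start sites, while Nuf2 and Birc5, which also differed strongly, hold none of those searched. RefSeq windows (GRCm38.p6, the build mm10) from 250 bases before to 50 bases after the start site were at hand for 36 of the 41 members, and for Spc24, Ska1, Nsl1, Incenp and Zwilch none was. The windows were searched on both strands for the cell cycle genes homology region (CHR), the letters TTTGAA. A variant of the CHR, TTCGAA, was counted with it. The box CCAAT was searched too, as were E2F sites (TTTGGCGC or TTTCGCGC or TTTCCCGC or TTTGCCGC). A CHR was present in 17 of the 36 windows, in 9 of them within the 50 bases from the start site on. Of these 9, the 7 shown here were all called lower in the first comparison below. Cdca8, also called, and Hjurp, not called, are not shown. In the following 30-base stretches around the CHR, printed 5′ to 3′ on the gene's strand, the capitals mark the CHR, which reads TTCAAA where it lies on the other strand.
Spc25, chr2:69206172-69206201, minus strand: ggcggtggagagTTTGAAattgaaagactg
Ndc80, chr17:71526811-71526840, minus strand: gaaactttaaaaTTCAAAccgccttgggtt
Cenpa, chr5:30666890-30666919, plus strand: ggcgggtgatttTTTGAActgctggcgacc
Cenpf, chr1:189688067-189688096, minus strand: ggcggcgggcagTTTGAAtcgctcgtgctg
Casc5, chr2:119047138-119047167, plus strand: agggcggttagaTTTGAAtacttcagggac
Sgol1, chr17:53689271-53689300, minus strand: gtaacgcagaatTTCGAAtgtggcggcggt
Oip5, chr2:119618456-119618485, minus strand: aagaggcgcgcgcTTCAAAgaaatatggcg
In these 7 genes the first base of the CHR lay at position 25 (Spc25), 30 (Ndc80), 17 (Cenpa), 3 (Cenpf), 32 (Casc5), 28 (Sgol1) and 34 (Oip5), counted from 1 at the start site, with -1 for the base before it.

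The 150 bases before the start site are printed for 3 of these genes, which hold CCAAT boxes, and for Mis12 and Zwint, which hold CCAAT boxes but no CHR and were not called. Capitals mark CCAAT, or ATTGG where the box lies on the other strand.
Spc25, chr2:69206214-69206363, minus strand: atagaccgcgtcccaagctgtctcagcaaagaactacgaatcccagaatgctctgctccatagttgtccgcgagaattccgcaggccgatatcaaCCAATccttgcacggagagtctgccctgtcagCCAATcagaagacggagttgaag
Cenpf, chr1:189688087-189688236, minus strand: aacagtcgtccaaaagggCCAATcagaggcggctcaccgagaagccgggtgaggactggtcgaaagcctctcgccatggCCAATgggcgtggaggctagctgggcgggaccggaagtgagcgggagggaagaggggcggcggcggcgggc
Cenpa, chr5:30666736-30666885, plus strand: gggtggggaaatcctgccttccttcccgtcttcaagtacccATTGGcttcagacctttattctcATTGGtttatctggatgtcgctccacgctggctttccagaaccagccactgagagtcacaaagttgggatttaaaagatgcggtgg
Mis12, chr11:71019461-71019610, plus strand: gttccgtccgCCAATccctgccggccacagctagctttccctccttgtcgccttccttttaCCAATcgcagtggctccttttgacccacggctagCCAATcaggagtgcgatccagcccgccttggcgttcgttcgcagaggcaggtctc
Zwint, chr10:72654696-72654845, plus strand: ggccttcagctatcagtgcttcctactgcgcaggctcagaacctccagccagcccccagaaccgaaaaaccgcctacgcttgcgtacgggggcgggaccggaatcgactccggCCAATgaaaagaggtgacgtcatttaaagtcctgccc
The CCAAT boxes of Spc25 began at positions -55 and -23, those of Cenpf at -132 and -71. A match is a stretch of letters and not a measured binding site.

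The first comparison asked how these genes stood after 6 weeks without dox (12w-res), against mice that stayed on dox for the whole 12 weeks (12w+dox). Of the 41 members, 32 were lower in 12w-res and 0 higher at an adjusted p under 0.05 (limma) and an absolute log2 fold change over 1, where 5.04% of all 15315 genes were called lower and 6.24% higher. The median log2 fold change of the members was -2.01 (all genes -0.0040), with a range from -4.20 (Spc25) to 0.46 (Zwint). The called members were 2.13-fold to 28.3-fold lower as ratios of mean FPM, with a median of 8.48-fold. In 37 of 41 members every 12w-res mouse was below every 12w+dox mouse, against 17.4% of all genes. Fitted fold changes are of FPM + 0.5, so they understate the change of genes with few reads, and the called members had 2 to 211 reads per mouse in 12w-res. Scaled to total reads, 3364 genes were lower and 244 higher in place of 772 and 955, and the members' median was -2.53 where that of all genes was -0.61. DESeq2 on the recovered reads called 34 members lower and edgeR 33.

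**Figure D1:**
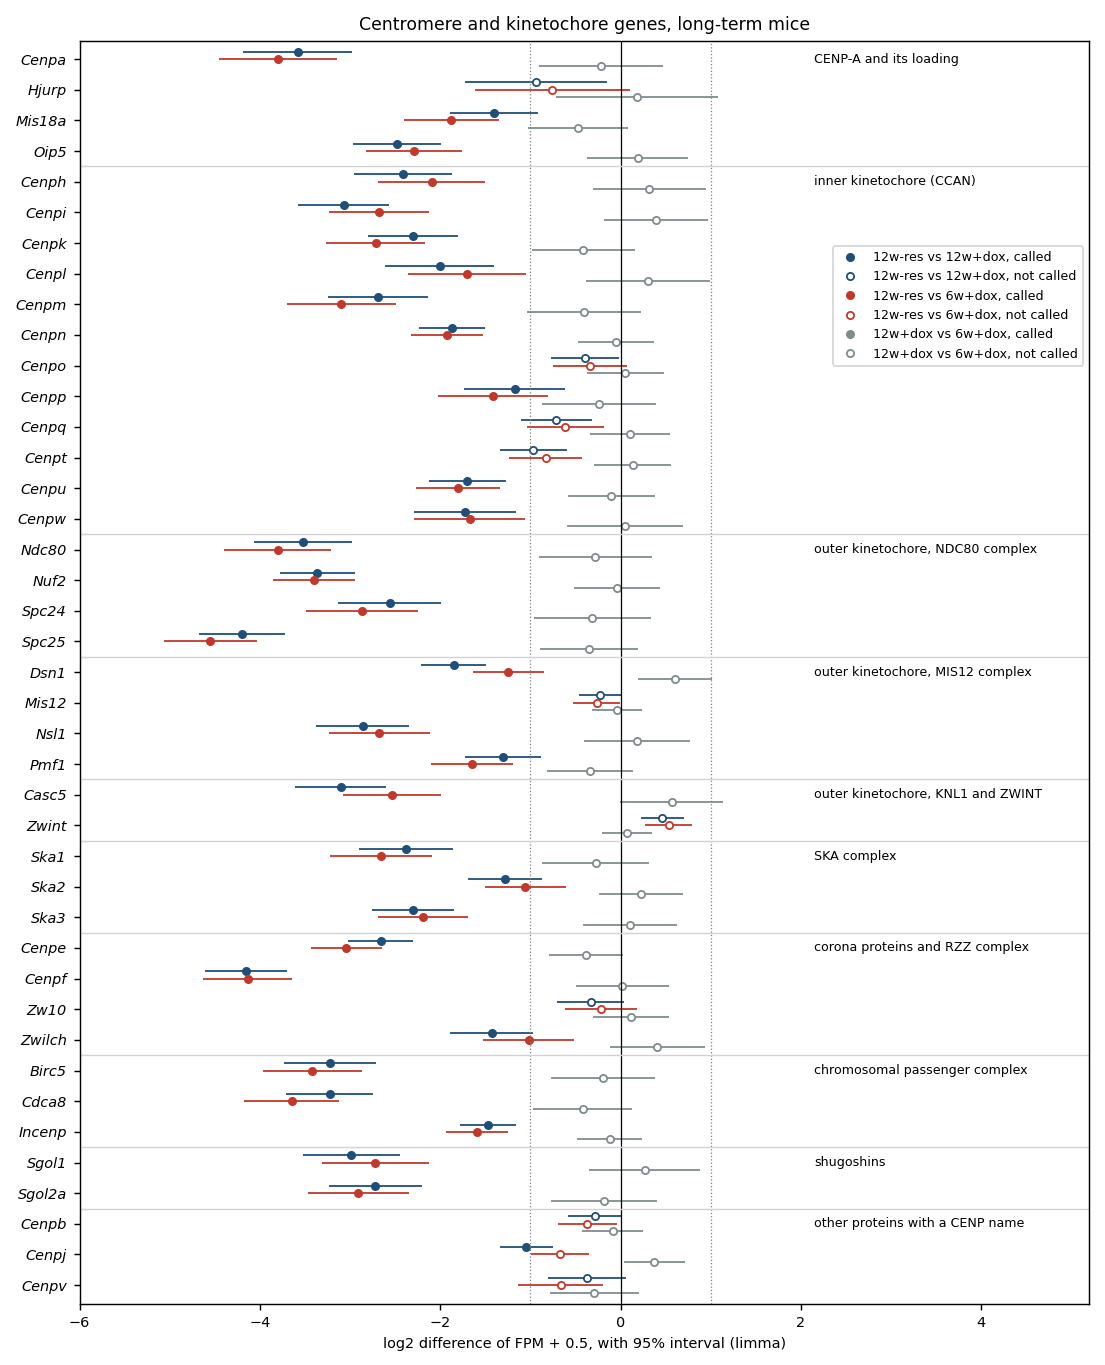
Log2 difference of FPM + 0.5 with its 95% interval (limma) for the 41 members, by role, in 12w-res against 12w+dox (blue), 12w-res against 6w+dox (red) and 12w+dox against 6w+dox (grey), with filled circles for called members and dotted lines at -1 and 1. Blue and red lie far below 0 for most members, Zwint lies above it, and all grey circles are open.

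CENP-A and its loading factors were lower in 12w-res in 3 of 4 members, the exception being Hjurp. Cenpa, the centromeric histone itself, measured 11.3, 19.6, 30.2 and 15.2 FPM in the 4 12w+dox mice (replicates 1 to 4, the order used throughout), 1.20, 1.37, 1.27, 1.00 and 0.497 in the 5 12w-res mice and 29.7, 19.8 and 15.4 in the 3 6w+dox mice. Every 12w-res mouse was below every dox-treated mouse, and the group mean was 17.8-fold lower than at 12w+dox (log2 fold change -3.58, SE 0.28, adjusted p 4.23e-07; exact two-sided permutation p 0.00794, the smallest that 4 against 5 mice allow). Oip5, a subunit of the MIS18 complex that licenses CENP-A loading, was 12.8-fold lower (4.12 ± 1.26 FPM at 12w+dox and 0.321 ± 0.177 in 12w-res, adjusted p 2.10e-06). Mis18a, of the same complex, was 2.93-fold lower (adjusted p 0.000324). Hjurp, the CENP-A chaperone, was the least abundant member at 12w+dox per kilobase of transcript (0.369 FPM per kb), with 1.61, 1.69, 2.25 and 1.65 FPM at 12w+dox and 0.520, 0.317, 0.956, 0.649 and 1.22 in 12w-res. The groups did not overlap, but the difference missed the threshold (log2 fold change -0.94, SE 0.37, adjusted p 0.0573). DESeq2 called it lower (adjusted p 0.0451), as did limma without 12w-res replicate 5, and at 6w+dox its values of 0.524, 1.11 and 4.43 FPM ran from within the 12w-res range to above the 12w+dox range.

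The inner kinetochore, or constitutive centromere-associated network (CCAN), bridges CENP-A nucleosomes and the outer kinetochore. Of its 12 members here, 9 were lower in 12w-res, 3 were not called and 0 were higher, with a median log2 fold change of -1.80. Cenpi had the largest difference, with 4.08, 7.40, 11.2 and 6.56 FPM at 12w+dox and 0.364, 0.528, 0.410, 0.413 and 0.221 in 12w-res (log2 fold change -3.07, SE 0.24, adjusted p 3.52e-07). No 12w-res mouse exceeded 0.528 FPM for Cenpi, against a lowest 12w+dox value of 4.08 and 4.66, 5.39 and 5.42 at 6w+dox. Cenpm, Cenph and Cenpk, which sit in the same part of the network, were lower with log2 fold changes of -2.69, -2.41 and -2.30 (adjusted p 3.36e-06, 8.42e-06 and 5.80e-06). Cenpl and its partner Cenpn, which recognises CENP-A nucleosomes, were lower with log2 fold changes of -2.01 and -1.87. The other called subunits were Cenpw (-1.72), Cenpu (-1.70) and Cenpp (-1.17).

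The 3 CCAN members without a call differed less. Cenpt, which recruits the NDC80 complex, measured 10.8, 11.6, 12.4 and 10.9 FPM at 12w+dox and 4.32, 5.92, 5.14, 6.32 and 6.58 in 12w-res. Its groups did not overlap, and it passed the adjusted p but stood just short of the fold minimum (log2 fold change -0.97, SE 0.17, adjusted p 0.000745), whereas its partner Cenpw passed both. Cenpt passed the minimum too without 12w-res replicate 4 or without replicate 5. Cenpq measured 9.32, 11.2, 14.8 and 7.76 FPM and 6.08, 5.60, 6.19, 7.08 and 6.08 FPM in the same order (log2 fold change -0.71, SE 0.18, adjusted p 0.00738), again with no overlap. Cenpo measured 6.11, 4.23, 5.98 and 4.69 FPM at 12w+dox and 3.48, 3.01, 3.78, 4.49 and 4.59 in 12w-res, and the highest 12w-res mice lay among the 12w+dox mice (log2 fold change -0.40, SE 0.17, adjusted p 0.0886). In the GENCODE annotation 22.5% of the exonic bases of Cenpo overlap exons of Adcy3 and Ptrhd1 on the opposite strand, and since the use of strand in counting was not stated, reads of these genes cannot be separated. The same holds for more than 10% of the exonic bases of Sgol2a (with Kctd18), Cenpu (with Primpol), Cenpp (with Ippk and Aspn) and Ska2 (with Gm11491), while 27 members share no exonic base with another gene.

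All 4 subunits of the NDC80 complex, the main microtubule coupler of the outer kinetochore, were lower in 12w-res, with a median log2 fold change of -3.44. Spc25, one of the globular-end subunits, had the largest difference of all members, with 20.4, 28.5, 35.9 and 20.3 FPM at 12w+dox, 1.25, 0.740, 1.00, 0.768 and 0.884 in the 12w-res mice and 43.5, 36.1 and 22.2 at 6w+dox. That was a 28.3-fold lower mean than at 12w+dox (log2 fold change -4.20, SE 0.22, adjusted p 1.06e-08), from 13 to 24 reads per mouse in 12w-res and 585 to 1164 at 12w+dox. Ndc80 and Nuf2, the pair that contacts the microtubule, were 16.6-fold and 14.0-fold lower (log2 fold changes -3.52 and -3.36, adjusted p 1.88e-07 and 2.94e-08). Spc24, the partner of Spc25, had the smallest difference of the complex and was still 7.72-fold lower (log2 fold change -2.56, SE 0.27, adjusted p 7.05e-06), with 6.80, 15.01, 16.4 and 10.8 FPM at 12w+dox and 1.56, 1.00, 1.55, 1.77 and 2.04 in 12w-res. At a level per kilobase of its longest coding transcript, Spc25 was the 4th most abundant member at 12w+dox (17.2 FPM per kb) and ranked 22nd in 12w-res.

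The MIS12 complex, the platform between inner and outer kinetochore, was uneven. Nsl1 measured 5.65, 8.25, 9.09 and 7.37 FPM at 12w+dox and 0.468, 0.211, 0.683, 0.827 and 0.995 in 12w-res (log2 fold change -2.86, SE 0.24, adjusted p 8.79e-07). Dsn1 and Pmf1 were also lower, by log2 fold changes of -1.85 and -1.31 (adjusted p 1.95e-06 and 0.000175). Mis12 itself was not called, with 23.7, 25.2, 24.3 and 23.0 FPM at 12w+dox and 20.8, 19.8, 17.2, 22.6 and 22.6 in 12w-res (log2 fold change -0.22, SE 0.11, adjusted p 0.134, 95% interval -0.47 to 0.02). The groups of Mis12 did not overlap, and the means were 1.17-fold apart, where those of Nsl1 were 11.9-fold apart.

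Casc5 (KNL1), the scaffold that binds the checkpoint kinases, measured 9.56, 12.8, 11.7 and 16.1 FPM at 12w+dox, 1.09, 0.475, 0.819, 1.59 and 1.22 in the 12w-res mice and 6.52, 8.15 and 10.2 at 6w+dox. Against 12w+dox it was 12.1-fold lower (log2 fold change -3.11, SE 0.23, adjusted p 2.79e-07), with no overlap between the groups. Zwint, its binding partner, was the most abundant member per kilobase (96.5 FPM per kb at 12w+dox) and the one member with a higher mean in 12w-res. It measured 279.7, 277, 243 and 233 FPM at 12w+dox, 342, 345, 383, 362 and 346 in the 12w-res mice and 292, 239 and 209.7 at 6w+dox, with every 12w-res mouse above every other mouse. The difference passed the adjusted p but not the fold minimum (log2 fold change 0.46, SE 0.11, adjusted p 0.00511; DESeq2 log2 fold change 0.46). Scaled to total reads, the log2 fold change of Zwint was -0.19 (adjusted p 0.0553), so its direction depended on the scaling. Zwint is also known as an abundant neuronal transcript.

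The 3 SKA subunits, which strengthen microtubule attachment, were all lower. Ska1 measured 1.85, 3.91, 5.36 and 3.97 FPM at 12w+dox and 0.156, 0.423, 0.410, 0.177 and 0.276 in 12w-res, where it was counted with 3 to 9 reads per mouse (log2 fold change -2.38, SE 0.24, adjusted p 5.87e-06). Ska3 was lower by a log2 fold change of -2.30 (adjusted p 2.17e-06). Ska2 had the smallest difference, with 17.7, 22.5, 28.9 and 19.2 FPM at 12w+dox and 10.4, 9.77, 6.01, 9.92 and 7.74 in 12w-res (log2 fold change -1.28, SE 0.19, adjusted p 0.000172), and its groups did not overlap.

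Of the corona and RZZ proteins, which capture microtubules and hold the checkpoint at unattached kinetochores, 3 of 4 were lower. Cenpf, a large corona protein with a peak in G2, measured 40.1, 40.2, 34.5 and 53.4 FPM at 12w+dox, 1.66, 2.27, 1.68, 3.07 and 1.05 in the 12w-res mice and 45.9, 41.3 and 36.1 at 6w+dox. Its mean was 21.6-fold lower in 12w-res (log2 fold change -4.16, SE 0.21, adjusted p 8.84e-09). Cenpe, the kinesin of chromosome alignment, was 7.96-fold lower (adjusted p 5.29e-08), and Zwilch, an RZZ subunit, 3.13-fold (adjusted p 0.000187). Zw10, the RZZ subunit that also acts in membrane traffic between cell divisions, was not called, with 19.1, 21.5, 22.6 and 22.3 FPM at 12w+dox and 17.5, 17.7, 17.1, 15.9 and 16.1 in 12w-res (log2 fold change -0.33, SE 0.17, adjusted p 0.143). At 6w+dox, Zw10 measured 15.02, 16.3 and 30.8 FPM, and without replicate 3 of that group its log2 fold change in 12w-res against 6w+dox turned from -0.22 to 0.10 (adjusted p 0.557).

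The chromosomal passenger complex was lower in all 3 members. Cdca8 (borealin) measured 12.0, 22.9, 22.4 and 17.7 FPM at 12w+dox and 2.18, 1.06, 1.73, 1.42 and 1.27 in 12w-res (log2 fold change -3.23, SE 0.22, adjusted p 1.23e-07). Birc5 (survivin), which docks the complex on the centromere, was 13.9-fold lower (log2 fold change -3.22, adjusted p 2.07e-07). Incenp, the scaffold that activates Aurora B, was lower by less, with 23.7, 31.1, 26.8 and 31.6 FPM and 9.62, 8.14, 9.01, 12.1 and 10.7 FPM in the same order (log2 fold change -1.47, SE 0.15, adjusted p 4.54e-06). All 3 genes separated the groups with no overlap.

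Both shugoshins, the protectors of centromeric cohesion, were lower. Sgol1 measured 5.51, 8.60, 9.30 and 7.46 FPM at 12w+dox and 0.312, 0.211, 0.592, 1.00 and 0.663 in 12w-res (log2 fold change -2.99, SE 0.25, adjusted p 9.08e-07). Sgol2a measured 7.71, 9.15, 11.8 and 10.2 FPM at 12w+dox and 1.72, 1.00, 1.27, 0.413 and 1.05 in 12w-res (log2 fold change -2.72, SE 0.24, adjusted p 1.41e-06). Neither gene had a 12w-res mouse within the 12w+dox range.

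The remaining 3 members carry a CENP name and were not placed in any of the roles above. Cenpj, a centriole protein despite its name, measured 26.5, 19.1, 17.5 and 20.9 FPM at 12w+dox, 9.46, 11.1, 8.47, 9.39 and 10.8 in the 12w-res mice and 15.4, 16.6 and 15.9 at 6w+dox. It was called at the edge of the fold minimum (log2 fold change -1.04, SE 0.14, adjusted p 6.58e-05) and lost the call without 12w+dox replicate 1 or without 12w-res replicate 3. Cenpb, which binds a motif of centromeric satellite DNA, was next to Zwint in level per kilobase (50.6 FPM per kb at 12w+dox) and was not called, with 210.4, 253, 278 and 247 FPM and 228, 196, 185, 212 and 191 FPM (log2 fold change -0.28, SE 0.14, adjusted p 0.125), and its groups overlapped. Cenpv was not called either (log2 fold change -0.37, adjusted p 0.162).

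**Figure D2:**
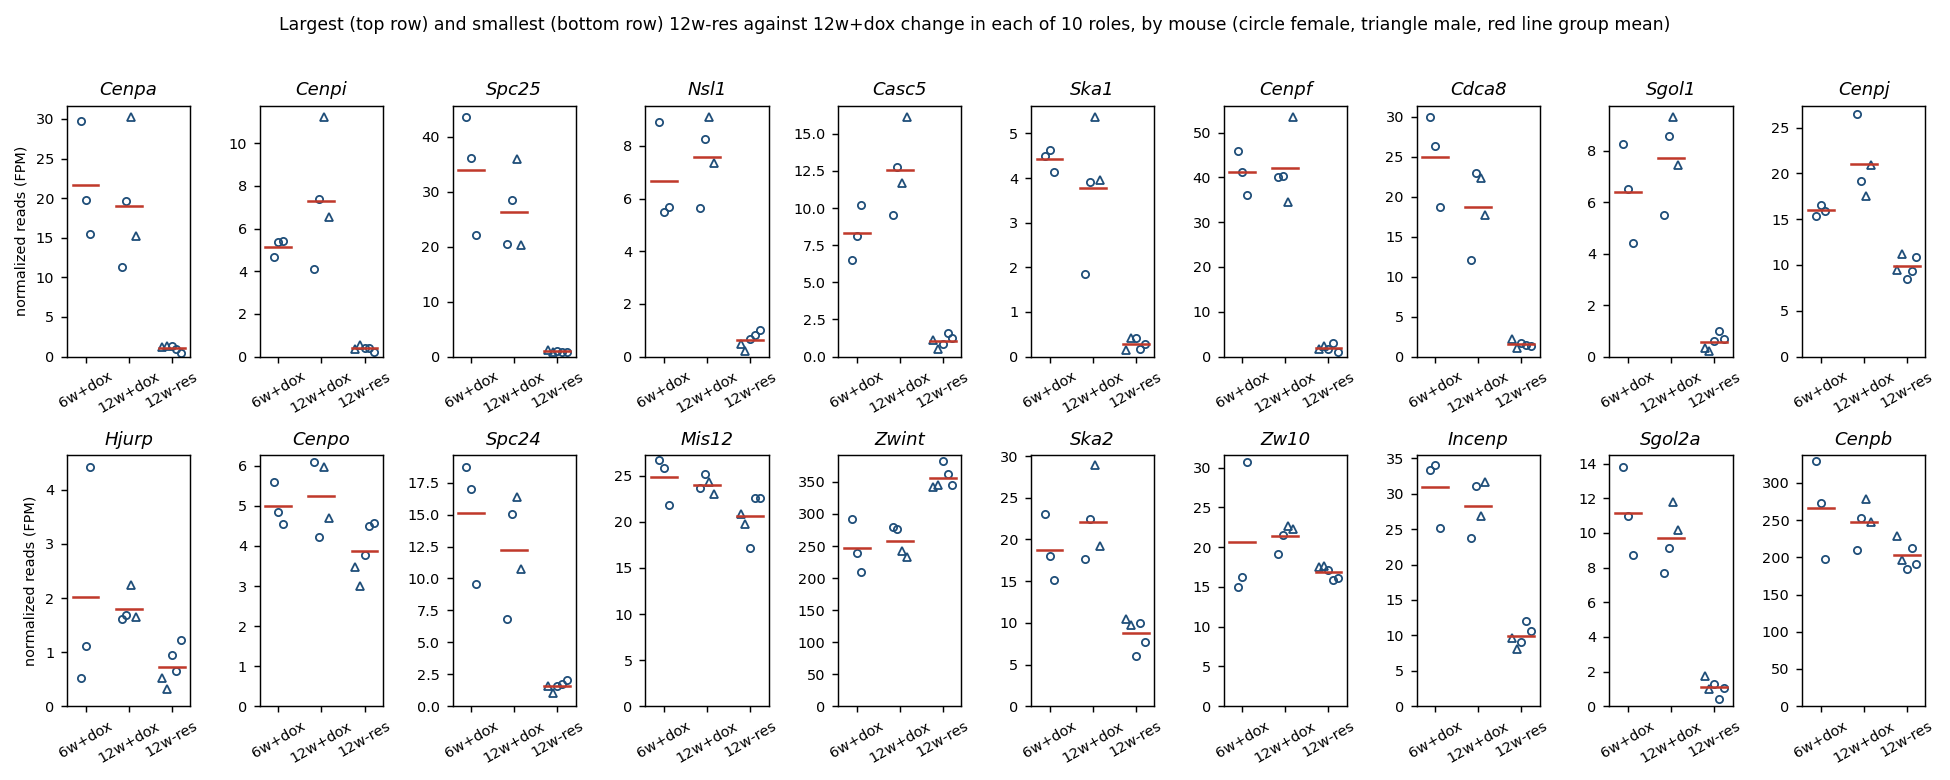
Deposited FPM of each long-term mouse (linear axes from 0) for the member with the largest (top row) and the smallest (bottom row) fitted 12w-res against 12w+dox change in each of the 10 roles, with circles for females, triangles for males and a red line at the group mean. Top-row genes such as Spc25 and Cenpf lie near 0 in 12w-res, while Mis12, Zw10 and Cenpb do not, and Zwint is higher there.

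Males and females were compared within the same contrast. In a fit with a group by sex term, 0 of 41 members passed an adjusted p under 0.05 (limma, smallest member adjusted p 0.999), against 13 of all 15315 genes. At an unadjusted p under 0.05 (limma) 2 members passed, Nsl1 and Sgol1, where 654 of all 15315 genes did. Spc25 had a log2 fold change of -4.16 in females and -4.22 in males, and Cenpf -4.15 in both. With 2 male mice in each group and 2 and 3 females, such a term has little precision. In females alone Cenpp lost its call, and in males alone Cenpj lost its call while Cenpt and Hjurp gained one.

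Against the 6w+dox mice, which stood at the time of withdrawal, 31 of 41 members were lower in 12w-res and 0 higher (limma), where 5.82% of all genes were called lower and 5.81% higher. The median log2 fold change was -1.92 (all genes -0.021). In 34 members every 12w-res mouse was below every 6w+dox mouse, against 15.9% of all genes. Pomc took 13.6% to 32.2% of reads at 6w+dox and the melanotroph markers, mostly Pomc, summed to 110911 to 382996 FPM there, both below their 12w-res ranges. Gh and Ghrhr summed to 45903 to 80171 FPM at 6w+dox and 6393 to 24762 in 12w-res, and the neural lobe markers Avp and Oxt to 32.3 to 103 and 0.951 to 3.69. Stem and folliculostellate markers summed to 85.9 to 133 and 58.9 to 78.0. Fibroblast markers went the other way (80.6 to 133 and 189 to 457), as did macrophage markers (50.1 to 68.5 and 79.7 to 108). The part of these shifts in the comparison was not tested. This comparison shares the 12w-res mice with the first. All 6w+dox mice were female and 12w-res held both sexes. With sex as a covariate 31 members were lower (limma). The 12w-res mice were also taken 6 weeks later after the start of dox. The 31 members lower here were also lower against 12w+dox, and Cenpj was called against 12w+dox alone, with log2 fold changes of -1.04 there and -0.67 here, a difference that was not tested as such. The 3 members with the smallest p were Spc25 (33.9 ± 10.8 FPM at 6w+dox, SD, n = 3, and 0.928 ± 0.207 in 12w-res, n = 5; log2 fold change -4.55, SE 0.24, adjusted p 2.05e-08), Cenpf (41.1 ± 4.89 and 1.95 ± 0.762; log2 fold change -4.14, SE 0.23, adjusted p 3.03e-08) and Cenpe. Cenpe measured 19.7, 15.9 and 15.4 FPM at 6w+dox and 1.25, 1.48, 2.05, 1.83 and 1.55 in 12w-res (log2 fold change -3.04, SE 0.18, adjusted p 4.28e-08). Zwilch and Ska2 were the called members nearest to the fold minimum (-1.02 and -1.06). Zwilch lost the call without 12w-res replicate 3 or 6w+dox replicate 3, and Ska2 without 12w-res replicate 3 or 6w+dox replicate 1. Without 6w+dox replicate 1, Cenpt and Hjurp gained a call.

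Between 6 and 12 weeks of continuous dox, 0 of 41 members were called in either direction (limma; DESeq2 0, edgeR 0), where 4.04% of all genes were called lower and 3.15% higher. In 0 of 41 members were all 12w+dox mice below all 6w+dox mice, against 12.4% of all genes. In 2 members, Dsn1 and Cenpj, all 12w+dox mice were above all 6w+dox mice. The share of all genes apart in that direction was not counted. At an unadjusted p under 0.05, 0 members were lower and 2 higher, where 2961 of all 15315 genes were lower and 2624 higher. The median log2 fold change was -0.037 (all genes -0.0063), and it ran from -0.11 to 0.031 with 1 mouse left out, the extremes being without 6w+dox replicate 3 and without 6w+dox replicate 1. For 36 of 41 members the 95% interval lay within a log2 fold change of 1 in both directions. All 6w+dox mice were female and 12w+dox held both sexes. With sex as a covariate 0 members were called in either direction (limma). Dsn1, with 6.23, 6.68 and 6.58 FPM at 6w+dox and 8.69, 11.7, 11.5 and 9.02 at 12w+dox, passed the adjusted p but not the fold minimum (log2 fold change 0.60, SE 0.19, adjusted p 0.037), and its groups did not overlap. The other members with small p were Cenpj (log2 fold change 0.37, adjusted p 0.104) and Casc5 (0.57, adjusted p 0.139). The groups also differed in cell type markers: the somatotroph markers Gh and Ghrhr summed to 45903 to 80171 FPM in the 6w+dox mice, against 933 to 7499.9 in the 12w+dox mice. Prl (9172 to 11704 and 214 to 4940) and the endothelial markers (149 to 201 and 50.5 to 109) were also higher at 6w+dox without overlap. So were the thyrotroph, neural lobe, and stem and folliculostellate markers, while ranges of the other lists overlapped. The part of these shifts here was not tested. Members tended to move together from mouse to mouse within these groups on dox: 12w+dox replicate 1 was the lowest of its group at 29 members and replicate 3 the highest at 30, and 6w+dox replicate 3 was the lowest of its group at 30. The 12w-res mice were each the lowest at 6 to 14 members and the highest at 5 to 10. Mki67 was lowest in 12w+dox replicate 3 (75.2 FPM, and 108 to 148 in the other 3 mice), whereas at 6w+dox it was lowest in replicate 3 (122 FPM, and 161 and 177 in the other 2), where the members were lowest too. Summed over 39 members, without the abundant Zwint and Cenpb, the mice spanned 425 to 598 FPM at 6w+dox, 404 to 567 at 12w+dox and 127 to 147 in 12w-res.

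**Figure D3:**
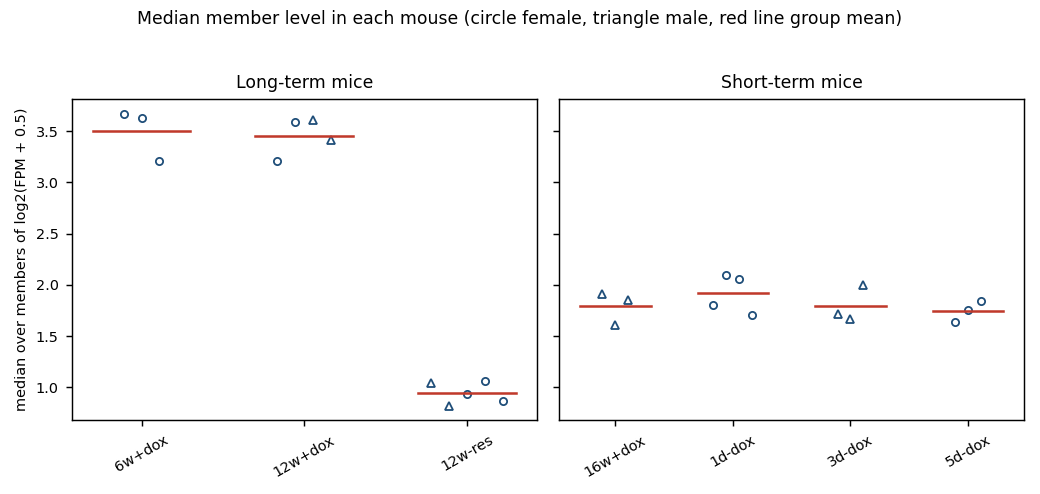
Median over members of log2(FPM + 0.5) in each mouse, with circles for females, triangles for males and a red line at the group mean, for the long-term (41 members) and short-term (40 members) experiments, which were normalized separately. Levels cannot be compared between the experiments. The 12w-res mice lie between 0.82 and 1.07, the 12w+dox mice between 3.21 and 3.61, and the 4 short-term groups overlap.

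The short-term experiment asked how early after dox withdrawal expression moved, and no member was called in its first days. Of 40 members, 0 were called at 1 day, 0 at 3 days and 0 at 5 days against 16w+dox by limma, and 0 by DESeq2 and 0 by edgeR at each time. Few genes at all were called then: 0.0358% lower and 0.00716% higher at 1 day, 0.0502% and 0.0788% at 3 days, and 0.107% and 0.086% at 5 days. At an unadjusted p under 0.05, 0 members were lower and 6 higher at 1 day, 1 lower and 1 higher at 3 days, and 2 lower and 2 higher at 5 days. Of all 13958 genes, 877 were lower and 946 higher at that p at 1 day, 1214 and 1109 at 3 days, and 884 and 1005 at 5 days. The median log2 fold changes of the members were 0.18, 0.10 and -0.0044. With 1 mouse left out the median ran from 0.078 (without 16w+dox replicate 2) to 0.31 (without 16w+dox replicate 1) at 1 day, from -0.021 (without 3d-dox replicate 3) to 0.20 (without 16w+dox replicate 1) at 3 days, and from -0.069 (without 16w+dox replicate 2) to 0.11 (without 16w+dox replicate 1) at 5 days. At each of the 3 times the 95% interval of all 40 members stayed above a log2 fold change of -1. The groups at 1 and 5 days were female and 16w+dox was male, so time and sex cannot be told apart there. The 3 comparisons share the 16w+dox mice.

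Spc25, the member with the largest long-term difference, measured 12.2, 7.38 and 9.65 FPM at 16w+dox, against 12.3, 13.1, 15.4 and 10.8 after 1 day, 10.8, 9.08 and 11.7 after 3 days and 10.2, 10.1 and 11.8 after 5 days off dox, with groups that overlapped throughout. Its log2 fold changes were 0.40 (adjusted p 0.274), 0.13 (0.735) and 0.15 (0.728). The other 2 members with the smallest p at 1 day were Cenpk (log2 fold change 0.45, SE 0.16, adjusted p 0.261) and Spc24 (log2 fold change 0.46, SE 0.17, adjusted p 0.272). Cenpk measured 2.47, 1.87 and 1.84 FPM at 16w+dox and 3.02, 3.63, 3.34 and 2.10 at 1d-dox, and its groups overlapped. Spc24 measured 3.27, 1.95 and 3.11 FPM at 16w+dox and 3.996, 4.46, 4.01 and 3.34 at 1d-dox, where every mouse was above every 16w+dox mouse.

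Zwint had the smallest p at 3 and at 5 days, with 71.9, 95.9 and 72.2 FPM at 16w+dox, 68.4, 65.6 and 63.3 after 3 days and 64.3, 61.0 and 64.4 after 5 days off dox. Its log2 fold changes were -0.27 (adjusted p 0.2) and -0.32 (adjusted p 0.173), with no overlap with 16w+dox at either time, and 16w+dox replicate 2 stood above the other 2 mice of its group. At 3 days Ska2 (log2 fold change 0.40, SE 0.17, adjusted p 0.259) and Cenpk (log2 fold change 0.37, SE 0.17, adjusted p 0.306) followed. Ska2 measured 4.42, 2.78 and 3.75 FPM at 16w+dox and 4.50, 4.04 and 6.44 at 3d-dox, and Cenpk 2.63, 2.57 and 3.19 at 3d-dox. At 5 days the next members were Cenpw and Cenph, with no overlap between groups and no pass of the adjusted p. The share of all genes without overlap was not counted in the short-term experiment. Lack of overlap in these members, and in Spc24 at 1 day, therefore does not show a shift. Cenpw measured 1.25, 0.855 and 1.17 FPM at 16w+dox and 1.74, 1.61 and 2.39 at 5d-dox (log2 fold change 0.59, SE 0.19, adjusted p 0.179). Cenph measured 1.27, 0.775 and 0.995 FPM at 16w+dox and 1.49, 1.97 and 1.83 at 5d-dox (log2 fold change 0.59, SE 0.26, adjusted p 0.339). Replicate 2 of 16w+dox was the lowest of its group at 30 of 40 members and replicate 1 the highest at 30, and 3d-dox replicate 3 was the highest of its group at 33.

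**Figure D4:**
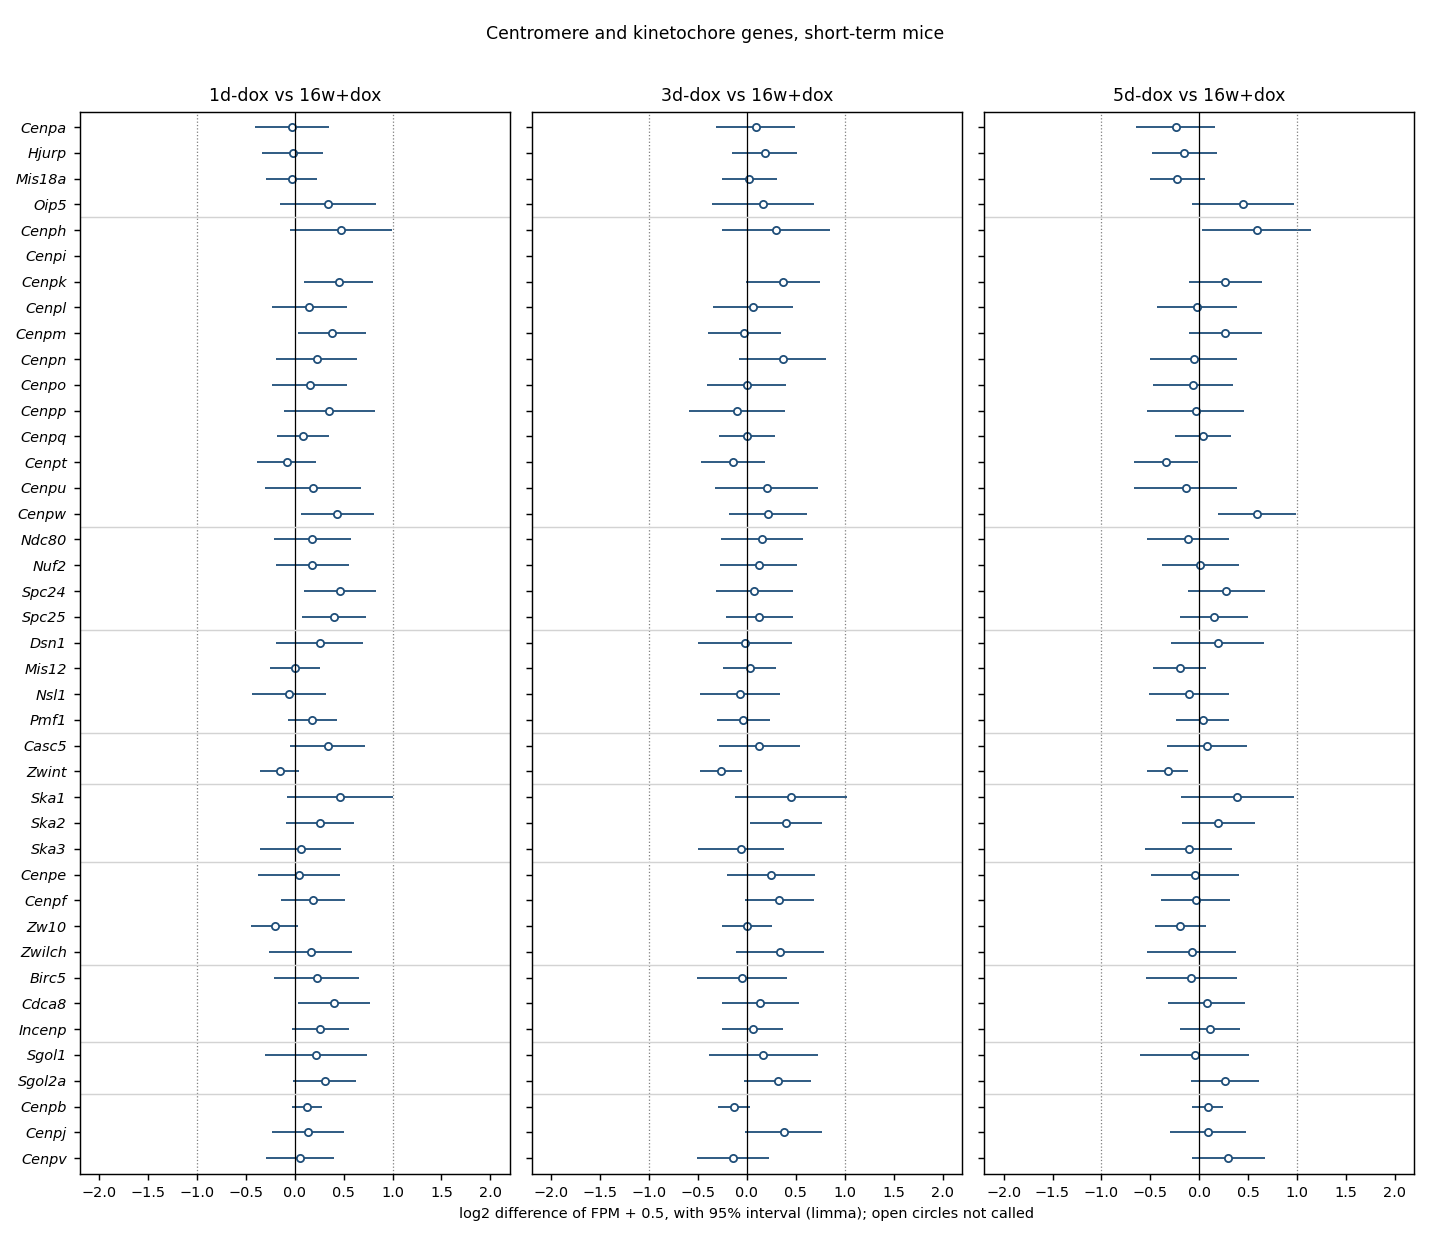
Log2 difference of FPM + 0.5 with its 95% interval (limma) for 40 members in 1d-dox, 3d-dox and 5d-dox against 16w+dox, in the order of roles of the long-term plot, with dotted lines at -1 and 1 and open circles for members that were not called. All circles are open and all intervals stay above -1; Cenpi was not listed in this table.

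Genes that work beside the members were taken from lists that hold no member. Of 28 spindle checkpoint and other kinetochore genes, 17 were lower in 12w-res than at 12w+dox and 0 higher (limma), with a median log2 fold change of -1.70. Kntc1, the third RZZ subunit and partner of Zw10 and Zwilch, had the largest difference of the lists, with 18.2 ± 3.38 FPM in the 12w+dox mice (SD, n = 4) against 0.545 ± 0.247 in the 12w-res mice (n = 5) (log2 fold change -4.18, SE 0.21, adjusted p 8.84e-09). Spag5, a spindle and kinetochore protein, followed within this list (log2 fold change -3.67, SE 0.21, adjusted p 2.76e-08). Of 16 genes of cohesin and its regulators, 4 were lower and 0 higher, with a median of -0.57, and 14 were lower where values were scaled to total reads. All 6 proliferation markers were lower. Top2a, the topoisomerase of mitotic chromosomes, measured 129 ± 27.1 FPM at 12w+dox and 7.58 ± 0.775 in 12w-res (log2 fold change -3.98, SE 0.15, adjusted p 2.18e-09), and Mki67 110.0 ± 29.7 and 10.2 ± 1.76 FPM. Against 6w+dox the 3 lists had 17 of 28, 4 of 16 and 6 of 6 genes lower. In the short-term mice, where 13 of the 16 cohesin genes were listed, 0 genes of the 3 lists were called at any time (limma); at an unadjusted p under 0.05 the checkpoint list had 0 lower and 3 higher at 1 day, 2 and 3 at 3 days, and 1 and 0 at 5 days, the cohesin list had 0 and 1, 0 and 1, and 0 and 0, and the proliferation markers 0 and 2, 0 and 1, and 0 and 0.

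The promoter elements shown above were set beside the calls of 12w-res against 12w+dox as a description, with no test. Of the 27 members called lower with a window, 15 held a CHR (55.6%), as did 2 of the 9 not called, Hjurp and Zw10. Of the 12044 genes of the long-term table with a window, 13.5% held one, and of all 27024 windows 19.5%. The CHR of Hjurp lay at position 20, within the same 50 bases as in 8 called members, while that of Zw10 lay at -148. The 17 members with a CHR had a median log2 fold change of -2.48 (from -4.20 to -0.33), and the 19 without one of -1.28 (from -3.36 to 0.46). CCAAT boxes were present in 18 of the 27 called members (66.7%) and 4 of the 9 others, against 38.4% of the table's genes. Both elements together were in 11 of 27 called members (40.7%), 1 of 9 others and 5.64% of the table's genes. The E2F letters were in 4 of 27, 1 of 9 and 4.05%. Nuf2 and Birc5 were lower by 14.0-fold and 13.9-fold with none of the 3 elements in their windows, and Mis12 held CCAAT boxes without being called. Across the members' windows, 2 matches overlapped a match of another motif.

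**Figure D5:**
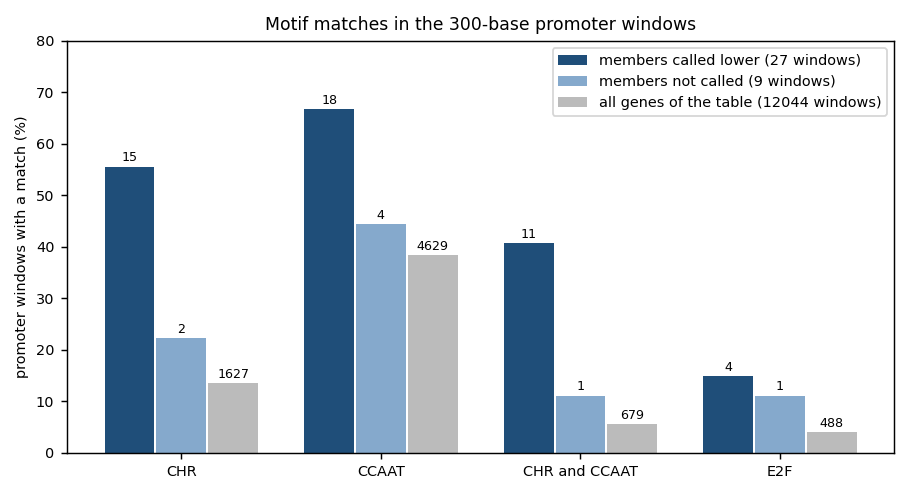
Percent of 300-base RefSeq promoter windows with a match on either strand, for members called lower in 12w-res against 12w+dox (27 windows), members not called (9) and all genes of the long-term table (12044), with the number of windows above each bar. A CHR was in 15 of 27 windows of called members and in 13.5% of windows of all genes.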

How the data were processed

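Whole pituitaries or pituitary tumors were snap frozen and total RNA was sequenced as paired ends. Per the labels, long-term libraries were poly(A)-enriched and short-term libraries rRNA-depleted, which the study's methods do not separate. The authors aligned reads to mm10 with STAR, kept RefSeq genes with at least 10 reads in over 50 percent of a condition's samples, and deposited the values as normalized signal (FPM with DESeq2 size factors), each experiment apart. The counting tool and its use of strand are not given in the sources used here. A filter that a gene can pass through 1 condition admits genes that are high in that condition alone.

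The deposited signal was divided by the value of 1 read per mouse, and 100% of 183780 long-term and 182143 short-term values were whole within 0.1 read. Left out were 2 long-term lines without a name and 4 short-term lines that name no gene, which held 68.8% to 75.0% of each short-term library. The main test was limma 3.58.1 (R 4.3.3, moderated with a mean trend) on log2(FPM + 0.5), with all groups of an experiment in 1 fit and Benjamini-Hochberg adjustment over all genes with at least 10 recovered reads in over 50% of a condition (15315 and 13958 genes). Called genes had both a log2 fold change beyond 1 in either direction and an adjusted p below 0.05. DESeq2 1.42.0 and edgeR 4.0.16 (quasi-likelihood) on recovered reads, other scalings, filters and pseudocounts, sex, a replicate block and leaving out each mouse were alternatives. The fits were also run on simulated data with known changes, limited to genes above a minimum mean of reads and with 1 fixed spread. That run does not show how the fits perform for members with few reads.

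Members and lists were chosen with earlier results of these data known. Full values were given for the members with the largest and smallest change per role and those whose call differed from most of their role, and in other comparisons for the 3 smallest p. Of other genes, Rb1, GFP, Mki67, Pomc and the 3 called neighbours with the largest change in each direction were named. Mis18a, Pmf1, Nuf2 and other members are given in short. Names, positions and promoters were from RefSeq (GRCm38.p6), which matched 41 of 41 members, 15269 of 15315 long-term and 13955 of 14007 short-term genes, and transcript lengths and exon overlaps from GENCODE (vM21). Replicates were separate mice, and all replicate pairs differed by more than counting noise (chi-square over its degrees of freedom was 11.8 to 228 in 19 long-term and 4.01 to 37.6 in 15 short-term pairs). Read counts cover counting error only.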

Additional observations from a re-analysis of the deposited data

Results flagged for a closer look

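Of 122 gene-by-group tests for a single mouse far from the others of its group, 5 stood out, where chance gives about 1 in 20. Hjurp measured 2.25 FPM in 12w+dox replicate 3 and 1.61 to 1.69 in the other 3 mice. It stood apart again in 1d-dox replicate 2, with 3.70 FPM against 2.84 to 2.88 in the other 3. In 12w-res replicate 3, Cenpn measured 1.14 FPM (others 1.77 to 1.92) and Zwilch 1.41 FPM (others 1.92 to 2.13), from 25 and 31 reads. Cenpv measured 15.8 FPM in 12w-res replicate 4 and 9.89 to 11.6 in the other 4 mice.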

How the results depend on the processing

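For 12w-res against 12w+dox the median log2 fold change of the members (-2.01) was -2.67 with DESeq2, -2.65 with edgeR and TMM, -2.66 with edgeR and RLE, -2.53 scaled to totals, -2.38 and -1.72 with pseudocounts of 0.1 and 1, -1.89 in females, -2.09 in males, and -2.23 to -1.80 with each mouse left out, with 31 to 34 members lower. Against 6w+dox (-1.92) it was -2.75 with DESeq2, -2.74 and -2.75 with edgeR (TMM and RLE), -2.18 scaled to totals, -2.50 and -1.71 with these pseudocounts, -1.996 with sex as a covariate, and -2.02 to -1.82 with each mouse left out, with 29 to 32 members lower. Where 10 reads were required in every sample, a filter that removes genes low in 12w-res, 26 members were tested, of which 18 and 17 were lower, with medians of -1.41 and -1.50. Without a minimum fold change 1 member was higher in each of the 3 long-term comparisons. For 12w+dox against 6w+dox, scaling to totals gave 0.28 (all genes 0.29). With each mouse left out, that median (-0.037) ran from -0.11 to 0.031, the 1-day median from 0.078 to 0.31, the 3-day median from -0.021 to 0.20 and the 5-day median from -0.069 to 0.11, so all but the 1-day median of these 4 changed sign. Single members were all followed through the settings only in the comparisons of 12w-res. The values that reversed there were those of Zwint against 12w+dox scaled to totals (-0.19, limma adjusted p 0.0553) and of Zw10 against 6w+dox. The value of Zw10 ran from -0.40 to 0.10 with each mouse left out, the latter without 6w+dox replicate 3 (limma adjusted p 0.557). In the other 4 comparisons only the 3 members with the smallest p were followed, and none of their values reversed. Reversals of the other members were not looked for there. The cause of these moves was not tested beyond what each setting removes.

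For single members, 907 values against 12w+dox kept their direction and side of the threshold, 16 gained a call and 4 lost one, and against 6w+dox these were 795, 4 and 5. With the replicate number as a block, 34 members were lower against 12w+dox, with Cenpt and Hjurp gained, and 31 against 6w+dox. Only 12w-res had a replicate 5, so the block took that mouse out of the comparison with 12w+dox. The median there was -2.04, the same as without 12w-res replicate 5, so this is no separate check. Same-numbered mice shared only a number, with correlations of their deviations from -0.17 to 0.24 in the long-term and -0.21 to 0.17 in the short-term experiment. Genes with few reads limit precision, since called members had as few as 2 reads in a 12w-res mouse.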
